A study of Mus musculus with 4 samples.

Results

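The respiratory chain subunits of both genomes were followed through the cells of aged mouse kidneys treated with BPTES. The genes were taken by symbol: the accessory and core subunits of complex I (Nduf genes of the a, b, c, s and v series), Sdha to Sdhd, the Uqcr genes, Cox4 to Cox8, the Atp5 genes and the genes of the mitochondrial chromosome, without pseudogene symbols. This gave 97 of 31054 features, 84 of them nuclear and 13 mitochondrial. By symbol, the nuclear genes fell into 37 of complex I, 4 of complex II, 8 of complex III, 18 of complex IV and 17 of complex V. The mitochondrial genes were 7 of complex I, 1 of complex III, 3 of complex IV and 2 of complex V. Atp5o is listed under 2 identifiers, which were kept apart. Ndufa4 was counted with complex I by its symbol, although its product is now assigned to complex IV. Atp5s, a coupling factor and no fixed subunit, also met the rule on symbols. Genes with other symbol stems, such as cytochrome c1 (Cyc1), were placed in separate lists.

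The respiratory chain passes electrons from NADH and succinate to oxygen and pumps protons across the inner mitochondrial membrane, and ATP synthase (complex V) uses that gradient to make ATP. Complexes I, III, IV and V are built from nuclear-encoded subunits, which are imported, and from subunits encoded and translated inside the mitochondrion, whereas complex II is wholly nuclear-encoded. Kidney tubule segments that reabsorb salt and solutes are among the tissues richest in mitochondria, and leukocytes hold far fewer. BPTES inhibits glutaminase 1 (GLS1), the mitochondrial enzyme that turns glutamine into glutamate, a route by which glutamine carbon reaches the tricarboxylic acid cycle.

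All mice were C57BL/6 males that were 19 months old when treatment began. Kidneys were collected after 1 month of BPTES (2 libraries) or of the vehicle DMSO (2 libraries), and all 4 libraries came from liberase-digested, sorted tissue in which 20000 CD45-negative and 9000 CD45-positive cells were mixed before 10x GEM-X 3' library preparation. No group of untreated or young mice was used here. The labels do not say whether the 2 libraries of a group came from separate animals, so the p-values measure only the spread between these libraries.

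Total counts were 249881074 to 297947661 UMIs (unique molecular identifiers, each standing for 1 captured transcript) per library, over 17907 to 20091 barcodes. Barcodes with over 50% of UMIs from mitochondrial genes made up 30.9% to 34.2% of a library and were left out. After doublet removal 46738 cells remained, in 51 clusters, of which 44 were named from marker genes as 19 classes. The 7 unnamed clusters held 3394 cells (7.26%). Every class name below stands for cells like that type. Between 90 and 114 barcodes occurred in both members of any pair of libraries. Because 3' UMIs count molecules and not fragments, no correction for gene length was applied.

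Promoters of the 17 genes called lower in macrophage-like cells were searched for motifs beside those of all nuclear members. The 17 are the members past the threshold of the test. Most other nuclear members were lower there too, with BPTES below DMSO without overlap for 74 of the 79 tested. The sequences are RefSeq's, of the build GRCm38.p6, and 66 of 83 nuclear member symbols had an entry. The start is that of RefSeq's promoter entry, which for Cox5a and Atp5g3 lies inside the gene's annotated span (chr9:57517328-57532427 and chr2:73908447-73912464), as it does for Ndufa13 and Atp5g1, counted but not shown. Shown are the 120 bases before the start of Cox5a at chr9:57521112-57521231 (+ strand) and of Ndufb8 at chr19:44555443-44555562 (- strand), the members with the lowest adjusted p, and of the 3 called members with a match, Ndufa11 at chr17:56717642-56717761 (+ strand), Ndufs6 at chr13:73328483-73328602 (- strand) and Atp5g3 at chr2:73911327-73911446 (- strand). Capitals mark a match to NRF1 (GCGCANGCG, either strand) in Ndufa11 and Ndufs6 and to ERR alpha (TCAAGGTCA, either strand) in Atp5g3.
Cox5a: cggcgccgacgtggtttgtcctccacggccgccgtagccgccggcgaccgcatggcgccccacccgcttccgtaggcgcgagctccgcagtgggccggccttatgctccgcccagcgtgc
Ndufb8: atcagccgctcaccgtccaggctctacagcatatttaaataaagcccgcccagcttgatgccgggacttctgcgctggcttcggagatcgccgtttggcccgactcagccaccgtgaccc
Ndufa11: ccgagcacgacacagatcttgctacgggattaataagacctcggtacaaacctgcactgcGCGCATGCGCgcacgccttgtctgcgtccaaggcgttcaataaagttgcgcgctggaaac
Ndufs6: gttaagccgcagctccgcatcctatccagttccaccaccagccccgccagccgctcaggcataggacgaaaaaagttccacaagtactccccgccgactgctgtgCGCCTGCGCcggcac
Atp5g3: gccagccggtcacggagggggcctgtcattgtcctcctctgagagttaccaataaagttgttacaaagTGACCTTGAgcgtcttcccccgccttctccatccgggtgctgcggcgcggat

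NRF1 and ERR alpha are transcription factors known for regulating nuclear genes of the respiratory chain. In the 250 bases before the start, the NRF1 letters stood in 13 of 66 nuclear member promoters (19.7%), against 5.33% of 27025 mouse promoters and 5.08% of the promoters of cytosolic ribosomal proteins. In Ndufa11 overlapping matches on both strands share the stretch in capitals. An ETS family core (CCGGAAG, either strand) was found in 16.7% of the member promoters, 7.05% of all promoters and 28.8% of ribosomal protein promoters. YY1 (AAGATGGCG, either strand) matched none of the 66, against 0.607% of all promoters, and ERR alpha matched 1 of 66 (1.52%), against 0.366%. Of the 17 members called lower in macrophage-like cells, 14 had an entry. Of those, 2 held the NRF1 letters, 1 the ERR alpha letters and none the ETS or YY1 letters. Sdhc, Uqcrb and Uqcrq were without an entry. These counts describe letters in a window, and binding was not measured.

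The level of the nuclear members differed more between classes than between treatments. Per 1e6 UMIs of genes outside the mitochondrial chromosome, the nuclear members together averaged 54816 ± 7195 (SD, n = 4 libraries) in thick ascending limb-like cells, the loop segment that pumps salt, and 52013 ± 11547 in distal convoluted tubule-like cells. Intercalated cell-like cells followed at 45982 ± 4903 and proximal tubule-like cells at 43016 ± 2561, and the order within these 4 tubule classes lay inside the spread between libraries. Collecting duct principal-like cells stood apart below them at 26012 ± 3279. Most distal convoluted tubule-like cells (952 of 1273) lay in cluster 14, with medians of only 1497 to 1614 UMIs per cell and 78368 to 88330 per 1e6. The deeper cluster 31 was at 25870 to 45842 per 1e6. Of the thick ascending limb-like cells, 782 of 1067 lay in cluster 19, whose median cell held 0.173 of the median UMIs of its library. The part of depth in these levels was not tested. Cycling cells, a class set by cell cycle genes and not by cell type, were at 17079 ± 2483. The other classes ran from 12476 ± 1039 in dendritic-like cells to 9602 ± 1114 in macrophage-like cells and 7295 ± 691 in plasma cell-like cells. From dendritic-like cells down, each class overlapped its neighbour in that order.

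**Figure D1:**
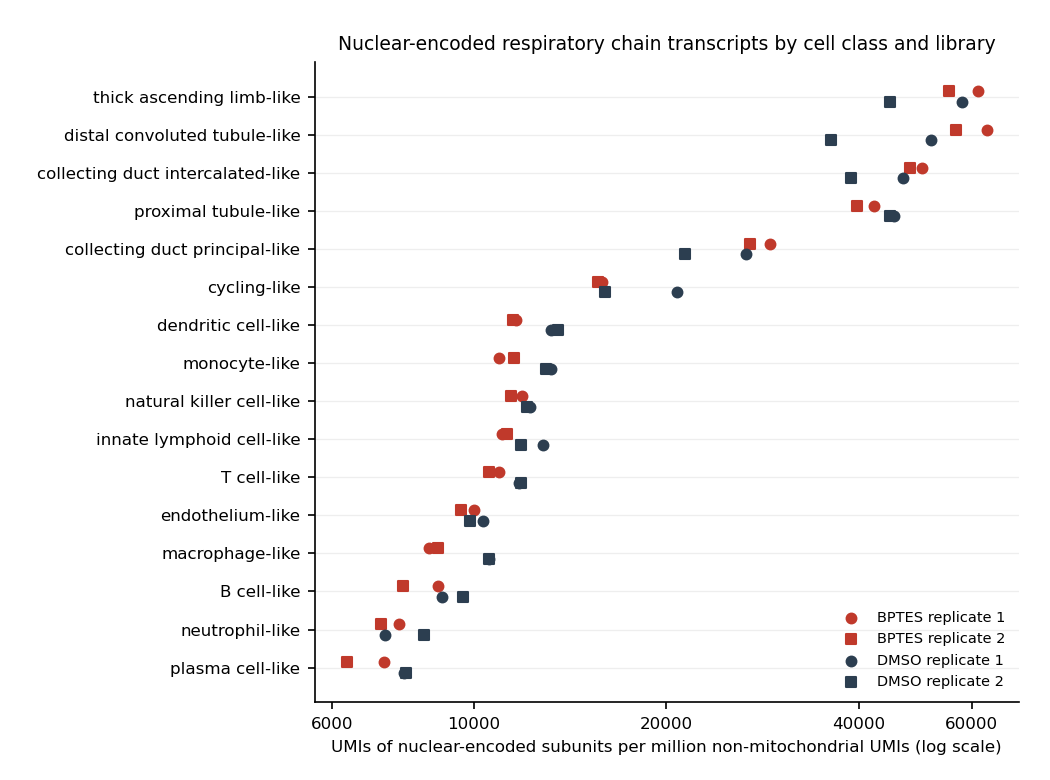
Summed UMIs of the 84 nuclear-encoded members per 1e6 UMIs of genes outside the mitochondrial chromosome (horizontal log axis) in the 16 classes with cells enough in every library, 1 point per library. In macrophage-like cells both BPTES libraries (8509 and 8775) sit left of both DMSO libraries (10566 and 10560), whereas in distal convoluted tubule-like cells both BPTES libraries sit to the right.

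Across the 16 classes, both BPTES libraries were below both DMSO libraries in 10, above both in 3 and overlapped them in 3. With cells limited to at most 25% mitochondrial UMIs the counts were again 10, 3 and 3. The summed cytosolic ribosomal proteins, a list outside the respiratory chain, were lower in 9 classes, higher in 1 and overlapping in 6 at either limit. The 3 higher classes were all epithelial: distal convoluted tubule-like, collecting duct principal-like (29047 and 27033 against 26606 and 21360 per 1e6) and intercalated-like (50110 and 48106 against 46796 and 38918 per 1e6). The classes share the same 4 libraries and are not independent of each other.

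In macrophage-like cells, the resident phagocytes marked by C1qa, C1qb and Adgre1, nuclear genes of every complex fell under BPTES. Of 79 nuclear members tested with edgeR's quasi-likelihood test, 17 were lower at an adjusted p under 0.05 and none was higher, and 5 of the 84 did not pass the filter on low counts. Of all genes tested in these cells, 2.45% were called lower. At an unadjusted p under 0.05, 64 of the 79 were lower, against 14.4% of all genes. Groups did not overlap, with BPTES lower, for 74 of the 79, against 30.5% of all genes, and the median log2 fold change was -0.34, against -0.01 over all genes. The called genes were 8 of 36 in complex I, 1 of 4 in complex II, 3 of 8 in complex III, 2 of 14 in complex IV and 3 of 17 in complex V.

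Among the complex I genes, Ndufb8, an accessory subunit of the membrane arm, measured 80.3 and 81.3 CPM (counts per 1e6, TMM-scaled) with BPTES and 115 and 115 CPM with DMSO. The libraries of each group nearly coincided, and the fall of 30.0% was a log2 fold change of -0.51 (SE 0.07, adjusted p = 0.027). Ndufc1, a small membrane-arm subunit, measured 46.6 and 52.7 CPM under BPTES against 70.3 and 74.0 CPM, a log2 fold change of -0.54 (SE 0.09, adjusted p = 0.038). Ndufs8, a core subunit that carries iron-sulfur clusters, measured 54.6 and 48.2 CPM against 71.6 and 73.1 CPM (log2 fold change -0.49, SE 0.09, adjusted p = 0.041). Accessory and core subunits of complex I were both among the genes that fell. Ndufa11, Ndufc2, Ndufs6, Ndufa13 and Ndufa12 completed the 8, with log2 fold changes from -0.46 for Ndufa11 to -0.37 for Ndufa12 and adjusted p-values up to 0.048.

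In complex II, Sdhc, one of the membrane anchors of succinate dehydrogenase, measured 49.3 and 47.0 CPM under BPTES and 64.0 and 65.5 CPM under DMSO. Its log2 fold change was -0.43 (SE 0.07, adjusted p = 0.041). Sdha, the flavoprotein that holds the active site, was the exception within the complex, at 90.5 and 96.1 CPM against 89.8 and 84.9 CPM (log2 fold change 0.10, SE 0.07, adjusted p = 0.466). In complex III the called genes were the small subunits Uqcrq (94.3 and 108 CPM against 145 and 142 CPM, log2 fold change -0.50, SE 0.09, adjusted p = 0.040), Uqcrb (-0.45) and Uqcr10 (-0.44). Uqcrh, the hinge protein that helps cytochrome c bind, measured 280 and 287 CPM against 287 and 277 CPM, and its groups overlapped.

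In complex IV the change with the lowest adjusted p was that of Cox5a, which encodes a nuclear subunit close to the catalytic core. Cox5a measured 128 and 134 CPM with BPTES and 192 and 199 CPM with DMSO, a fall of 32.8% (log2 fold change -0.57, SE 0.07, adjusted p = 0.027). Cox8a, the ubiquitous isoform of the smallest subunit, measured 271 and 311 CPM against 402 and 412 CPM (log2 fold change -0.48, SE 0.09, adjusted p = 0.046). Both Cox5a and Cox8a were lower in each BPTES library than in either DMSO library. Cox7a2l, whose product joins complex III to complex IV in supercomplexes, had a log2 fold change of 0.10 (SE 0.09, adjusted p = 0.510). In complex V the called genes were Atp5g3 (64.9 and 69.6 CPM against 97 and 87.4 CPM, log2 fold change -0.46, SE 0.08, adjusted p = 0.045), Atp5g1 (-0.44) and Atp5o (-0.41). Atp5g1 and Atp5g3 encode the same mature protein of the rotor ring, and Atp5o encodes the stalk protein at which oligomycin sensitivity is conferred. Besides Sdha, Uqcrh and Cox7a2l, the nuclear members with a fitted value above 0 in macrophage-like cells were Ndufs1 (0.12), the iron-sulfur subunit of the NADH-oxidising arm, and Cox7a1 (0.13), with adjusted p-values of 0.448 and 0.888.

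**Figure D2:**
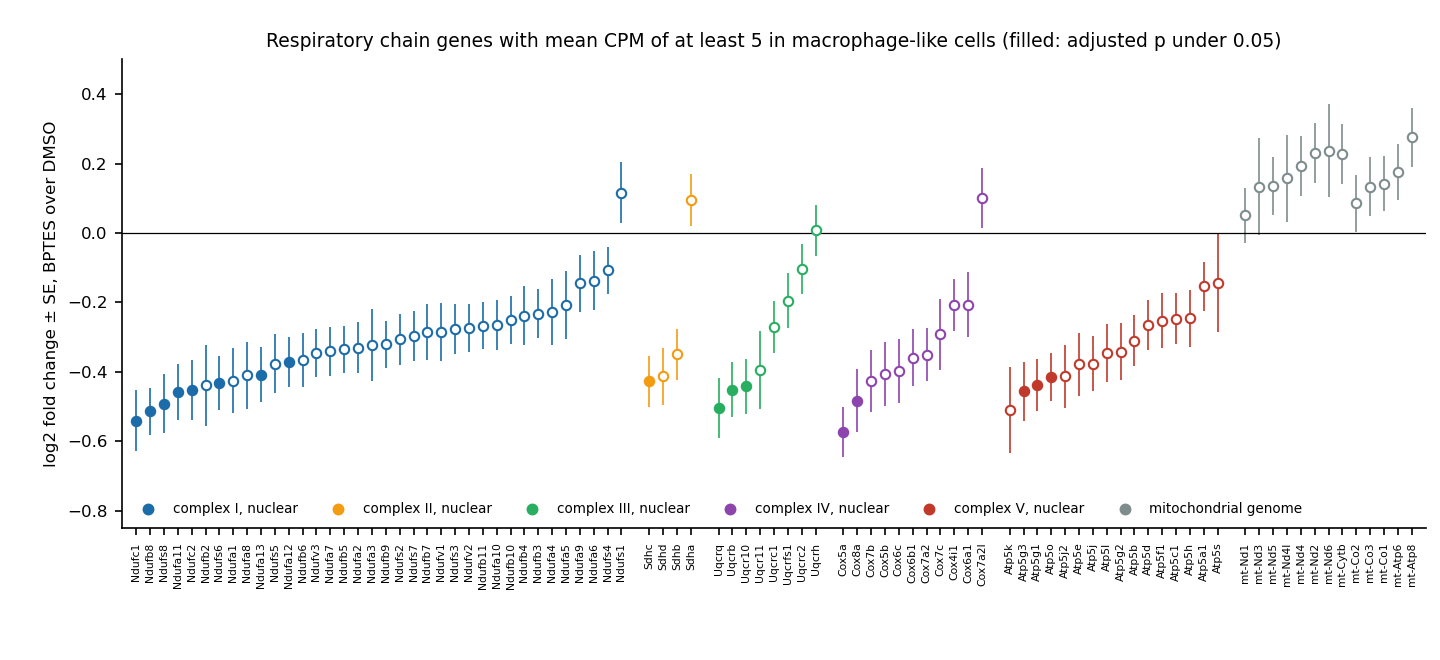
Log2 fold change (BPTES over DMSO, vertical axis) with its standard error for the 88 members with a mean of at least 5 CPM in macrophage-like cells, ordered within each complex, with 4 tested members under that level not drawn. Filled points passed the test, and every filled point is below 0, Cox5a lowest at -0.57, while the 13 mitochondrial genes at the right lie above 0 with open points.

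None of the mitochondrially encoded members passed the test in the same cells. All 13 had a fitted value above 0 in macrophage-like cells (median 0.16), and 10 had both BPTES libraries above both DMSO libraries, against 27.3% of all genes. The part of most of the 13 in the mitochondrial UMIs differed little between libraries, so these counts are not independent of each other. At an unadjusted p under 0.05 there were 3, against 11.1% of all genes higher. Apocytochrome b (mt-Cytb) measured 2554 and 2832 CPM against 2344 and 2255 CPM, a log2 fold change of 0.23 (SE 0.09, adjusted p = 0.166). With cells at up to 50% mitochondrial UMIs, the summed share of the 13 in all UMIs was 3.08% and 3.17% with BPTES, against 2.83% and 2.76%. The share at the 25% limit is not given for this class. The median cell ran the opposite way, with 1.82% and 1.70% of its UMIs mitochondrial under BPTES against 1.95% and 1.85%, and cells at 25 to 50% numbered 18 and 13 against 11 and 8. In the same class, the summed nuclear members were 18.2% lower (log2 ratio -0.29).

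The fall of the nuclear members stood beside flat cytosolic ribosome transcripts and lower mitochondrial ribosome transcripts. In macrophage-like cells the cytosolic ribosomal proteins, short abundant transcripts used as a comparison, had a log2 ratio of -0.00 in sum, and 1 of 77 tested was called, the p53 target Rps27l (96.3 and 108 CPM against 154 and 153 CPM). Of 77 mitochondrial ribosomal proteins tested, which build the ribosome that translates the 13 mitochondrial mRNAs, 10 were called lower and none higher. Mrpl2 (log2 fold change -0.60) and Mrpl20 (-0.52) had the largest changes among them. Against the 2.45% of all genes called lower, the other lists held single calls. Of the 15 complex I assembly factors tested, Ndufaf8 alone was called (-0.42), and of 33 assembly factors for complexes II to V, Uqcc2, which serves complex III, alone (-0.62). Slirp, which stabilises mitochondrial mRNAs, fell by 0.48 on the log2 scale, the only called gene of 21 for mitochondrial gene expression and biogenesis. Slc25a5, an ADP/ATP carrier, was the only called gene among 12 membrane carriers, at 145 and 153 CPM against 207 and 227 CPM (log2 fold change -0.54, SE 0.08, adjusted p = 0.033). None of 14 genes of the tricarboxylic acid cycle and none of 16 for electron carriers and donors passed edgeR's test there, with 4 in each list at an unadjusted p under 0.05, near the 25.6% of all genes in either direction. At that p were also 44 of 77 mitochondrial ribosomal proteins, 8 of 12 membrane carriers and 11 of 33 assembly factors for complexes II to V. The other lists had 2 of 15 for complex I assembly, 4 of 21 for mitochondrial gene expression and biogenesis and 10 of 77 cytosolic ribosomal proteins.

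Several other quantities moved with the treatment in these cells, and their part in the result was not tested. The 12 proximal tubule markers, all detected in each library, summed to 690 and 624 UMIs per 1e6 non-mitochondrial UMIs with BPTES and to 441 and 329 with DMSO, with 10 of the 12 higher in both BPTES libraries. The 8 T cell markers summed to 745 and 676 per 1e6 under BPTES and 460 and 759 under DMSO, so the groups overlapped. The median cell held 15184 and 14451 UMIs with BPTES and 17166 and 20361 with DMSO. Malat1, an RNA retained in the nucleus, had a log2 ratio of 0.17, and the 15 dissociation and immediate early genes together one of 0.17, with none of them called and 6 at an unadjusted p under 0.05.

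By cluster, the nuclear sums of macrophage-like cells were lower under BPTES in each of 3. Cluster 5, led by complement C1q genes and Pf4, measured 7738 and 8460 UMIs per 1e6 non-mitochondrial UMIs against 10644 and 10289, and 34 members were called in that cluster alone, where 5.56% of all genes were. Cluster 16, whose leading genes also include the T cell gene Themis, measured 9299 and 9145 per 1e6 against 10295 and 10762. None was called in cluster 16, where 1.6% of all genes were. The shallow cluster 40 measured 15990 and 16812 per 1e6 against 18826 and 18371. By range of UMIs per cell, the log2 ratio of the nuclear sums was -0.26 at 15000 UMIs or more, -0.11 between 5000 and 15000 UMIs and -0.51 below 5000 UMIs. Depth still differed within the top range, where the median cell held 23417 and 23215.5 UMIs with BPTES and 24979 and 26870 with DMSO. The BPTES libraries were lower than the DMSO libraries in each of these 3 ranges.

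The count of 17 depended on single libraries. Leaving out any 1 library left 1 in its group, and the calls over all genes moved widely with it as well. The median log2 fold change of the nuclear members ranged only from -0.40 to -0.29 over the 4 omissions. The count was 2 when clusters were drawn at a finer resolution, where 0.94% of all genes were called in either direction. It was 7 when predicted doublets were kept, where 2.1% of all genes were called. With DESeq2 it was 29, where 7.17% of all genes were called, against 3.34% by edgeR in the main fit.

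Dendritic-like cells, the antigen-presenting leukocytes marked by Flt3 and Zbtb46, had the second-largest number of calls. Of 78 nuclear members tested, 7 were called lower and none higher, against 1.57% of all genes called lower. BPTES was below DMSO without overlap in 70 of the 78, against 27.6% of all genes, and the median log2 fold change was -0.24, against -0.00 over all genes. Cox5a measured 195 and 189 CPM under BPTES and 262 and 268 CPM under DMSO, a log2 fold change of -0.47 (SE 0.07, adjusted p = 0.025). Ndufv3, an accessory subunit of the NADH-oxidising module, measured 71.6 and 71.4 CPM against 92.5 and 92.6 CPM (log2 fold change -0.37, SE 0.07, adjusted p = 0.042). For Ndufv3 the 2 libraries of each group were almost equal and the groups well apart. The other 5 were Ndufc1 (-0.40), Ndufb8 (-0.35), Atp5g1 (-0.35), Uqcr10 (-0.35) and Ndufc2 (-0.34), each of which was also called in macrophage-like cells of the same libraries. The summed nuclear members measured 11653 and 11516 UMIs per 1e6 non-mitochondrial UMIs against 13212 and 13525. Of the dendritic-like cells, 37.1% and 39.9% lay in cluster 27 with BPTES and 17.9% and 30.3% with DMSO, the others in cluster 13. The sums were lower within both, at 11379 and 11512 per 1e6 against 13042 and 13352 in cluster 13 and 12018 and 11521 against 13907 and 13884 in cluster 27.

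The 12 proximal tubule markers together were lower in the BPTES sums of dendritic-like cells, 335 and 308 per 1e6 non-mitochondrial UMIs against 381 and 340. Of the 12, 2 were lower and 2 higher without overlap. The 8 macrophage markers summed to 1800 and 2190 per 1e6 under BPTES and 2061 and 3401 under DMSO, and the part of either list in the result was not tested. Of 14 genes of the tricarboxylic acid cycle, mitochondrial malate dehydrogenase (Mdh2) alone was called, at 205 and 171 CPM against 285 and 288 CPM (log2 fold change -0.61, SE 0.09, adjusted p = 0.030). Sdhaf1, which delivers iron-sulfur clusters to complex II, fell by 0.72 on the log2 scale (SE 0.11, adjusted p = 0.028). Other called list genes in these cells were the immediate early gene Ier3 (log2 fold change -0.80) and the ribosomal paralog Rpl39l, seen at only 0 and 0.104 CPM in the BPTES libraries. The count of 7 depended on single libraries, and leaving out any of them left 1 library in its group. Over those omissions the median log2 fold change of the nuclear members was -0.27 to -0.22. The count rose to 27 with predicted doublets kept, where 4.24% of all genes were called in either direction, against 2.82% without them. It was 1 at the finer resolution, where 1.7% of all genes were called. Within the clusters it was 1 in cluster 13 (1.03% of all genes) and 0 in cluster 27 (0% of all genes).

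Monocyte-like cells, circulating relatives of macrophages, lay in cluster 18, led by Chil3, Fn1 and F13a1 (831 cells), and cluster 20, led by Adgre4, Cd300e and Ace (698 cells). There none of 78 nuclear members passed edgeR's test, where 0.0247% of all genes did, and DESeq2 also called none, where it called 3.43%. At an unadjusted p under 0.05, 33 were lower, against 9.82% of all genes. BPTES was below DMSO without overlap for 67 of the 78, against 27.2% of all genes, with a median log2 fold change of -0.23 against -0.02. Without BPTES replicate 1 the median of the nuclear members was -0.14. Cluster 18, whose nuclear sums were above those of cluster 20 in each library, held 47.4% and 51.2% of the monocyte-like cells with BPTES and 63.3% and 54.8% with DMSO. Within the clusters the median was -0.16 in cluster 18 and -0.24 in cluster 20. Cox5a measured 216 and 230 CPM against 303 and 282 CPM (log2 fold change -0.39, SE 0.10, adjusted p = 0.129). Cox8a measured 347 and 389 CPM against 459 and 507 CPM (-0.39, SE 0.11, adjusted p = 0.146). Both genes thus had lower values in each BPTES library here too. Drawing clusters at the finer resolution brought the number called to 18, where 8.02% of all genes were called, and monocyte-like cells of DMSO replicate 2 numbered 186, against 391 to 490 in the other libraries.

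The 17 genes called in macrophage-like cells were followed in the other classes, which come from the same 4 libraries. All 17 had fitted log2 fold changes below 0 in monocyte-like (-0.48 to -0.21), dendritic-like (-0.47 to -0.20), T cell-like (-0.28 to -0.03) and B cell-like cells (-0.46 to -0.09). Of all nuclear members tested there, 71 of 78, 74 of 78, 70 of 77 and 68 of 76 were below 0 in turn. In endothelium-like cells 16 of the 17 were below 0, with a median of -0.06, as were 57 of all 77 nuclear members. In proximal tubule-like cells 16 were below 0, with a median of -0.10, as were 70 of all 79. In distal convoluted tubule-like cells all 17 were above 0 (0.29 to 0.57), as were all 77 nuclear members. The direction was thus not particular to the 17.

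**Figure D3:**
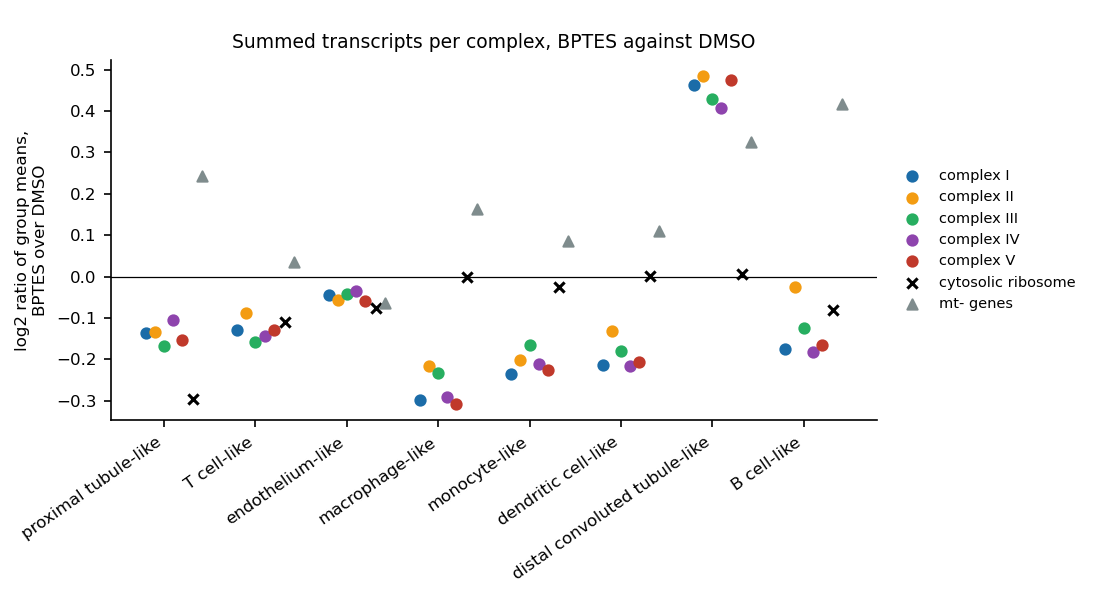
Log2 ratio of the group means (BPTES over DMSO, vertical axis) of summed UMIs in 8 classes. Circles give the nuclear members of each complex and crosses the cytosolic ribosomal proteins, per 1e6 UMIs of genes outside the mitochondrial chromosome, and triangles the mitochondrial genes as a share of all UMIs. In macrophage-like cells the 5 complexes lie between -0.31 and -0.22 with the cytosolic ribosome at -0.00, and in distal convoluted tubule-like cells the 5 complexes lie between 0.41 and 0.48.

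In T cell-like cells none of 77 nuclear members passed edgeR's test, where 0.249% of all genes did, and DESeq2 called none, where it called 0.683%. At an unadjusted p under 0.05, 21 were lower, against 7.3% of all genes. The BPTES libraries were lower without overlap for 53 of the 77, against 24.3% of all genes, and the median was -0.13 against -0.00. With predicted doublets kept the median was -0.06, and 59 of 78 nuclear members were below 0, against 70 of 77 without them. The summed nuclear members measured 10961 and 10551 UMIs per 1e6 non-mitochondrial UMIs against 11780 and 11842, and the cytosolic ribosomal proteins were also below 0 in 77 of 77 tested genes (median -0.10). Endothelium-like cells showed no such separation of sums, with 9989 and 9565 per 1e6 against 10323 and 9863. None of the 77 nuclear and 13 mitochondrial members passed in endothelium-like cells, where 0.796% of all genes did, 1 had an unadjusted p under 0.05 (11.8% of all genes), and DESeq2 called none, where it called 1.19%. In the same cells 7 of 15 dissociation and immediate early genes were called lower, among them Egr1 (log2 fold change -1.22) and Fos (-0.99), transcription factors that are also induced by tissue digestion.

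Proximal tubule-like cells, the segment that reabsorbs most of the filtered solutes, were the largest class, with 4994 to 5721 cells per library. The nuclear members together measured 42168 and 39780 UMIs per 1e6 non-mitochondrial UMIs with BPTES, against 45339 and 44774, a difference of -9.06%. The mix of clusters also differed without overlap: cluster 4 held 472 and 469 cells against 801 and 740, cluster 17 held 2.80% and 1.56% of these cells against 4.69% and 7.35%, and cluster 8 held 8.18% and 8.32% against 5.47% and 5.05%. Within clusters 0, 1, 4, 8 and 32 the sums were lower in both BPTES libraries, and in clusters 2, 6, 9 and 17 the groups overlapped. The cytosolic ribosomal proteins had a log2 ratio of -0.30, the mitochondrial ribosomal proteins one of -0.20 and Malat1 one of 0.25. Of 15 dissociation and immediate early genes, 12 had an unadjusted p under 0.05 and none passed (median log2 fold change -1.10). All 8 macrophage markers were lower in both BPTES libraries, summing to 25.7 and 19.3 per 1e6 against 37.7 and 46.4, and the part of these quantities in the result was not tested. None of 79 nuclear and 13 mitochondrial members passed edgeR's test, where 0.135% of all genes did. At an unadjusted p under 0.05 there were 2 nuclear and 1 mitochondrial members, and DESeq2 called 3. Both lie below the shares of all genes, 20.7% at that unadjusted p and 7.66% with DESeq2. BPTES was below DMSO without overlap for 45 of the 79, against 30.3% of all genes, with a median log2 fold change of -0.09 against -0.02. Without BPTES replicate 2 the median of the nuclear members was -0.06.

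Of the nuclear members, the most abundant of each complex in proximal tubule-like cells had log2 fold changes near 0. Ndufa4 measured 1126 and 1086 CPM under BPTES and 1146 and 1141 CPM under DMSO (log2 fold change -0.05, SE 0.10, adjusted p = 0.798). Sdhb, the iron-sulfur subunit of complex II, measured 469 and 412 CPM against 469 and 452 CPM. Cox4i1, the regulatory subunit IV of cytochrome c oxidase, measured 1391 and 1425 CPM against 1350 and 1429 CPM. The groups overlapped for Sdhb and Cox4i1. Uqcrq measured 643 and 648 CPM against 683 and 701 CPM, a log2 fold change of -0.10 (SE 0.09, adjusted p = 0.546), and Atp5b, the catalytic beta subunit of ATP synthase, had one of -0.07 (SE 0.11, adjusted p = 0.730).

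The largest change among the members in proximal tubule-like cells was that of Cox6a2, the isoform of subunit VIa known from heart and skeletal muscle, at chr7:128205435-128206366 (GRCm38.p6). Cox6a2 measured 3.55 and 5.95 CPM under BPTES (438 and 562 UMIs in turn) and 1.53 and 1.59 CPM under DMSO (187 and 180 UMIs). Both BPTES libraries were higher, by a log2 fold change of 1.60 (SE 0.26), and the adjusted p of 0.073 missed the threshold. It was below the threshold with cells at most 25% mitochondrial (0.0464), where 1.14% of all genes were called. It was also below without a filter on low counts (0.0117), where 2.38% of all genes were called. DESeq2 gave 3.24e-06 and called 7.66% of all genes, against 0.135% in the main fit. Without BPTES replicate 2, which left 1 library in its group, the log2 fold change was 1.18. Its ubiquitous counterpart Cox6a1 was far more abundant in these cells, at 867 UMIs per 1e6 non-mitochondrial UMIs over the 4 libraries, against 3.55 for Cox6a2.

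By cluster, Cox6a2 was higher in both BPTES libraries in clusters 0, 4, 6, 8 and 9 of the proximal tubule-like cells. In cluster 9 it measured 7.31 and 12.6 UMIs per 1e6 non-mitochondrial UMIs against 1.08 and 3.24, and in cluster 8 8.97 and 14.4 against 3.35 and 3.39. In cluster 4 the values lay closer, at 2.11 and 1.84 against 1.38 and 1.19, and in clusters 1, 2 and 17 the groups overlapped. Clusters 8 and 9 also held more cells under BPTES, 468 and 453 against 313 and 252 for cluster 8 and 466 and 369 against 358 and 262 for cluster 9. Plasmacytoid dendritic-like cells had the highest level of Cox6a2, 1040 per 1e6 over 98 cells. The 5 markers of that type summed to 71.7 and 74.7 per 1e6 in proximal tubule-like cells under BPTES, against 73.8 and 77.6, with overlap, and their part in the result was not tested. In distal convoluted tubule-like and thick ascending limb-like cells Cox6a2 was at 0.223 and 0.330 per 1e6.

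Cox6b2, an isoform of subunit VIb known from testis, had the opposite sign in proximal tubule-like cells. It measured 9.93 and 6.91 CPM under BPTES and 14.4 and 12.7 CPM under DMSO, without overlap (log2 fold change -0.69, SE 0.18, adjusted p = 0.134). By cluster it was lower in both BPTES libraries in clusters 1, 4, 6, 8, 17 and 32, and the groups overlapped in clusters 0, 2, 9 and 48. In cluster 1, led by the straight-segment genes Kap and Slc7a13, it measured 15.8 and 10.2 UMIs per 1e6 non-mitochondrial UMIs against 31.7 and 23.8, and in the small cluster 32 8.95 and 5.86 against 18.1 and 15.2. The BPTES values of cluster 32 rest on only 3 and 2 UMIs in 24 and 20 cells, against 44 and 31 UMIs under DMSO.

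**Figure D4:**
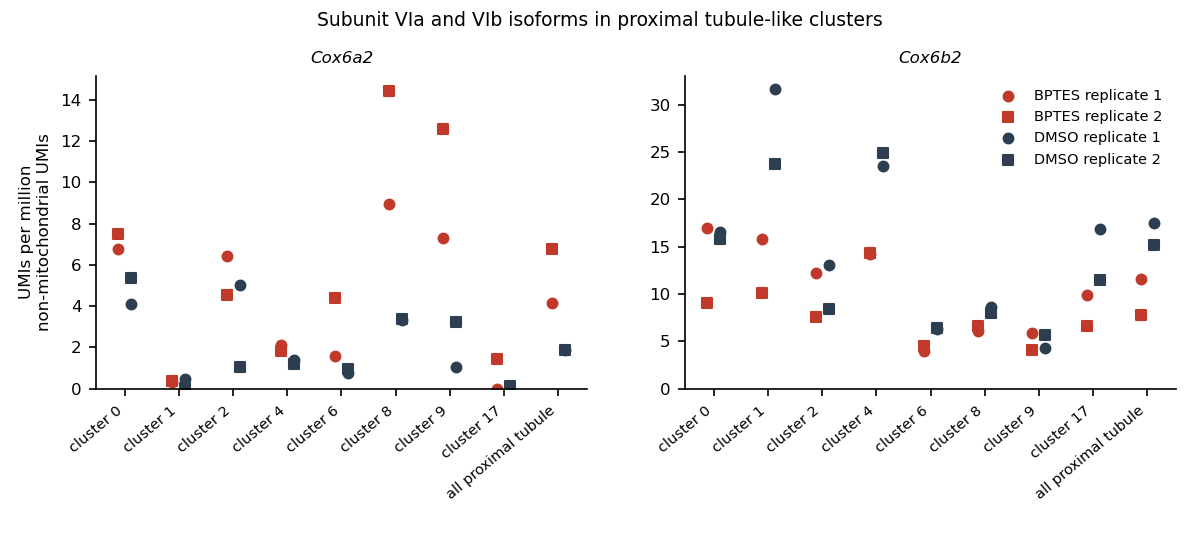
Cox6a2 (left) and Cox6b2 (right) in UMIs per 1e6 UMIs of genes outside the mitochondrial chromosome (vertical axes) for 8 clusters of proximal tubule-like cells and for all of them, 1 point per library. Over all proximal tubule-like cells, Cox6a2 is at 4.16 and 6.74 with BPTES and at 1.86 and 1.89 with DMSO.

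Whether the treatment effect differed between classes was tested for proximal tubule-like against macrophage-like cells and against endothelium-like cells, with the library as a block. Against macrophages, 1 of 80 nuclear members passed edgeR's test, against 1.14% of all genes. That member was Cox6a2, with a difference of 3.63 in log2 fold change (SE 0.54, adjusted p = 0.016). It rests on few molecules in macrophage-like cells, where 3 and 4 UMIs were seen under BPTES and 14 and 30 under DMSO. The calls, of members and of all genes, depended on single libraries, and leaving out any of them left 1 library in its group. Over those omissions the median difference of the nuclear members was 0.22 to 0.35. With all 4 libraries the difference was above 0 for 77 of the 80 nuclear members, with a median of 0.29 against 0.05 over all genes. At an unadjusted p under 0.05 there were 37, against 16% of all genes. With RLE scaling the median difference was 0.20 and over all genes -0.04, and with cells at most 25% mitochondrial it was 0.12 against -0.05. Against endothelium none of 81 nuclear and 13 mitochondrial members passed, where 0.268% of all genes did, and 2 mitochondrial members had an unadjusted p under 0.05, against 11.8% of all genes.

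In distal convoluted tubule-like cells, the thiazide-sensitive segment, the nuclear members were higher under BPTES in sum, at 63292 and 56730 UMIs per 1e6 non-mitochondrial UMIs against 51846 and 36185. Of 77 nuclear members, none passed edgeR's test, where 0.211% of all genes did, while 53 had an unadjusted p under 0.05, against 7.36% of all genes higher, and all 77 a fitted value above 0. DESeq2, which gave an adjusted p for only 907 genes here and called 9.59% of them, called 12 nuclear and 6 mitochondrial members. Both BPTES libraries were above both DMSO libraries for 69 of the 77, against 23.3% of all genes, and the median log2 fold change was 0.51. Cluster 31 held 51 of 365 and 42 of 304 distal convoluted tubule-like cells with BPTES, and 56 of 219 (25.6%) and 172 of 385 (44.7%) with DMSO, a larger share in both DMSO libraries. Without DMSO replicate 2, which had the highest share, the median was 0.27. Cluster 31, led by Slc12a3 and Trpm6, had a lower level than cluster 14 in every library. Within cluster 14 the sign turned, with 80499 and 78368 per 1e6 under BPTES and 82906 and 88330 under DMSO. Within cluster 31 the groups overlapped, at 45842 and 35700 per 1e6 against 37104 and 25870. By depth, the BPTES libraries were higher under 5000 UMIs, at 79647 and 82121 per 1e6 against 69289 and 69790. They were also higher at 15000 UMIs or more, at 53723 and 46779 against 46322 and 34069, and the groups overlapped between 5000 and 15000 UMIs. Proximal tubule markers summed to 3550 and 1224 per 1e6 under BPTES and 929 and 632 under DMSO in these cells, and Malat1 had a log2 ratio of -0.67. Of the 15 dissociation and immediate early genes, Atf3 alone was called there (log2 fold change -1.92). Without DMSO replicate 1, 85 members of both genomes were called, where 16.6% of all genes were.

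The mitochondrially encoded transcripts depended on the limit set on cells. With cells at up to 50% mitochondrial UMIs, their share was higher in both BPTES libraries than in both DMSO libraries in 6 of 16 classes and lower in none. With cells at up to 25%, it was higher in 3 and lower in 2. In proximal tubule-like cells the share was 14.9% and 17.7% under BPTES and 13.1% and 14.5% under DMSO at the wider limit, and 8.97% and 11.0% against 8.34% and 9.61%, with overlap, at the stricter one. In distal convoluted tubule-like cells it was 22.6% and 21.7% against 18.7% and 16.7% at the wider limit and 10.6% and 10.2% against 11.4% and 11.3% at the stricter one, a change of direction. In B cell-like cells the share was 5.31% and 4.71% against 4.14% and 3.38% at the wider limit and 3.90% and 3.91% against 3.11% and 3.25% at the stricter one. B cell-like cells of DMSO replicate 2 included 56 cells of cluster 47, against 4 to 20 in the other libraries, and within cluster 12 alone the share was 5.58% and 4.88% against 4.58% and 4.19%. Among B cell-like cells of 15000 UMIs or more the BPTES libraries were also higher, whereas the groups overlapped between 5000 and 15000 UMIs and below 5000 UMIs.

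**Figure D5:**
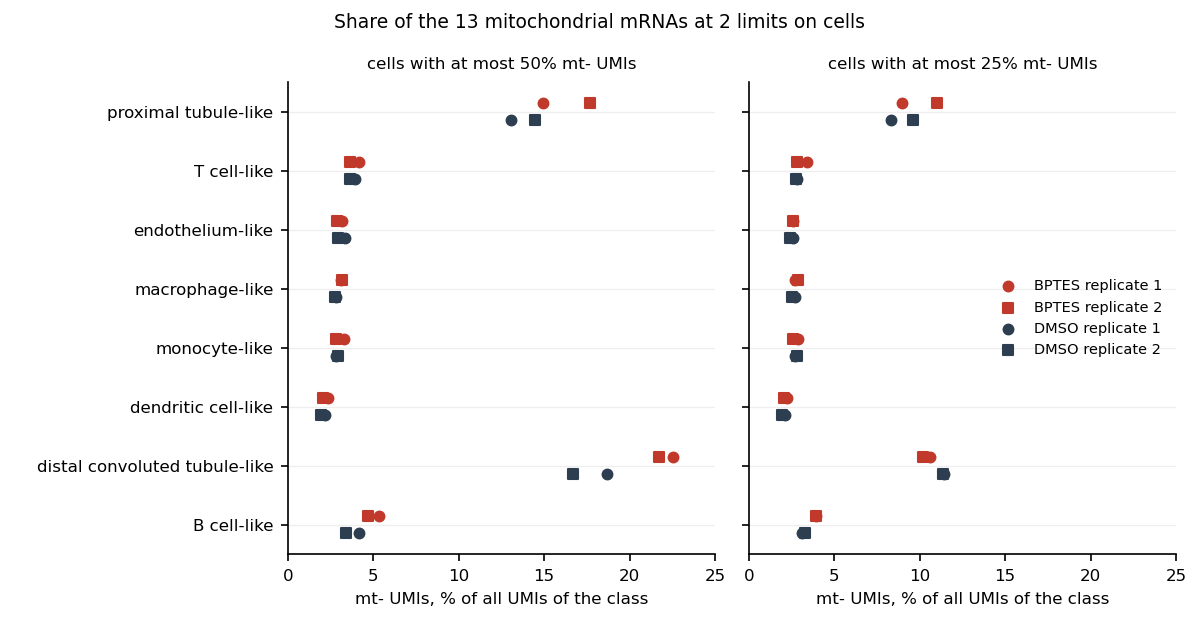
Summed UMIs of the 13 mitochondrial genes as a percent of all UMIs (horizontal axes) in 8 classes, 1 point per library, for cells with at most 50% (left) and at most 25% (right) mitochondrial UMIs. In distal convoluted tubule-like cells the BPTES libraries lie right of the DMSO libraries in the left panel (22.6% and 21.7% against 18.7% and 16.7%) and left of them in the right panel.

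Cells between the limits were unevenly spread. Of the proximal tubule-like cells, 35.2% and 40.7% were above 25% with BPTES and 27.6% and 30.6% with DMSO. A high mitochondrial share is also a usual sign of cells damaged in preparation, and the part of such cells in these shares was not tested. The nuclear sums of proximal tubule-like cells were 41841 and 33127 per 1e6 non-mitochondrial UMIs against 45507 and 42205 in cells at 0 to 10%, and 38602 and 42967 against 44198 and 45720 at 10 to 25%. In cells at 25 to 50% they were 49085 and 47396 against 46793 and 51596, with overlap.

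In proximal tubule-like cells 10 of the 13 mitochondrial genes were higher in both BPTES libraries, against 27.5% of all genes, and the groups overlapped for mt-Nd3, mt-Nd4l and mt-Nd6. Here and in B cell-like cells, the part of most of these genes in the mitochondrial UMIs differed little between libraries. Their counts thus largely repeat the summed share and are not independent of each other. There mt-Co3, encoding subunit III of cytochrome c oxidase and the most abundant member, measured 22307 and 29005 CPM under BPTES and 18611 and 21303 CPM under DMSO (log2 fold change 0.36, SE 0.18, adjusted p = 0.299). The corresponding log2 fold changes were 0.39 for mt-Nd4 of complex I, 0.37 for mt-Cytb and 0.34 for mt-Atp6 of ATP synthase, with adjusted p-values of 0.273, 0.280 and 0.297. The lowest value was that of mt-Nd6, the gene on the light strand, at 0.02 (SE 0.16). Within the mitochondrial UMIs of this class, mt-Cytb took 10.6% and 10.8% under BPTES and 10.7% and 10.5% under DMSO, and mt-Nd4 11.1% and 11.4% against 10.9% and 11.1%. These shares were lower without overlap for mt-Nd1 (8.27% and 8.09% against 8.55% and 8.63%), mt-Co2 and mt-Nd6 (0.0221% and 0.0221% against 0.0260% and 0.0291%), higher for mt-Co1, mt-Atp8 and mt-Nd4, and overlapped for the others. In B cell-like cells all 13 were above 0 (median 0.44), 13 had both BPTES libraries higher, against 24.1% of all genes, and 12 had an unadjusted p under 0.05, against 6.78% of all genes higher. None passed edgeR's test, where 0.247% of all genes did, and DESeq2 called 6, where it called 3.28% of all genes. There mt-Cytb measured 4686 and 4330 CPM against 3395 and 2737 CPM, a log2 fold change of 0.56 (SE 0.14, adjusted p = 0.126). Of the nuclear members of B cell-like cells, 68 of 76 had a fitted value below 0 (median -0.15), and 6 had an unadjusted p under 0.05, against 9.5% of all genes lower. Without BPTES replicate 2 or DMSO replicate 2, 49 and 50 of the 76 were below 0, with medians of -0.07 and -0.06. Proximal tubule markers in these cells summed to 1259 and 639 per 1e6 under BPTES and 587 and 322 under DMSO, and the stress gene Ier3 alone was called among the 15 dissociation and immediate early genes (0.769 and 2.09 CPM against 15.3 and 26.9 CPM).

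Levels of several minor isoforms differed between cell classes. Cox4i1 accounted for nearly all subunit IV transcripts, and Cox4i2, known from lung and hypoxia, was seen as 8 UMIs in all proximal tubule-like cells against 633375 of Cox4i1. Cox7a1, known from muscle, was highest in intercalated-like cells at 120 UMIs per 1e6 non-mitochondrial UMIs, then thick ascending limb-like (41.2), principal-like (35.4), proximal tubule-like (24.9) and distal convoluted tubule-like cells (21.7). It was between 0 and 5.54 per 1e6 in every non-epithelial class. Ndufa4l2, a hypoxia-induced relative of Ndufa4, was at 64.0 per 1e6 in fibroblast-like cells and at most 0.754 in the other classes. Cox6b2 was also highest there, at 66.5 per 1e6, and 182 of the 244 fibroblast-like cells came from DMSO replicate 2. Cox8b was seen as 1 UMI in proximal tubule-like and 10 UMIs in endothelium-like cells.

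The 3 genes for the rotor ring subunit c of ATP synthase were used in different proportions. Over the 4 libraries, Atp5g1 was the most abundant in proximal tubule-like cells, at 710 UMIs per 1e6 non-mitochondrial UMIs against 566 for Atp5g3 and 474 for Atp5g2, and in thick ascending limb-like cells, at 1102 against 670 and 633. In the leukocyte classes Atp5g2 led, with 282 per 1e6 against 137 for Atp5g1 and 84.4 for Atp5g3 in macrophage-like cells, and with 294 against 150 and 123 in T cell-like cells. In macrophage-like cells the 2 less abundant genes, Atp5g1 and Atp5g3, passed the test and Atp5g2, at a log2 fold change of -0.34 (SE 0.08), had an adjusted p of 0.069. That difference between the genes was not tested.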

How the data were processed

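Single-cell RNA from 4 kidney libraries was analysed. Per the file headers, Cell Ranger 8.0.1 made the deposited matrices of raw counts (UMIs of each gene in each barcode), with the build mm10 per the submitters' processing notes; the annotation version is not given in the sources used here. An added tdTomato feature was left out. The members and lists were chosen with earlier results of these data known.

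Barcodes with at least 500 UMIs, 300 genes and at most 50% mitochondrial UMIs were kept (50605 of 76278). The 3867 cells with the highest Scrublet scores were then removed as predicted doublets, at an assumed rate of 0.4% per 1000 barcodes. Scrublet's own threshold called only 592. Cells were clustered without the respiratory chain members of either genome (scanpy 1.11.5, 3000 variable genes, 40 components, 15 neighbours, Leiden resolution 1.0). Clusters were named from 158 markers of 24 cell types.

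Raw counts were added up over the cells of a class in each library. For the 8 largest classes (no library under 50 cells), all genes were tested with edgeR 4.0.16 (quasi-likelihood, robust, TMM, filterByExpr), adjusted by Benjamini-Hochberg at 0.05; fold changes are log2, BPTES over DMSO. The fit was tested on simulated counts for the proximal tubule libraries. It called 84 of 100 genes changed 2-fold, 48 of 100 changed 1.5-fold and 3 of 16122 unchanged genes. Smaller changes were not simulated. Differences between classes were tested as an interaction with library as a block. Sums per complex carry no p, since an exact permutation test of 2 against 2 libraries cannot go below 0.333.

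Named are up to 8 called members per class with the largest change, the most abundant member per complex and genome in proximal tubule, the isoform sets and up to 2 called genes per list and class. Alternatives covered the mitochondrial limit, mitochondrial genes in the fit, scaling, the low-count filter, DESeq2 1.42.0, the replicate block, each library, doublets, resolution, denominator and cell weight; single clusters, depth ranges and a crossed pairing in B cells were added after seeing the data. Depth per class follows from the cells and UMIs given.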

Additional observations from a re-analysis of the deposited data

Results flagged for a closer look

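Cox6a2 was the 1 of 80 nuclear members that passed the interaction of proximal tubule-like against macrophage-like cells, near the 1.14% of all genes that passed. Its difference was 3.63 in log2 fold change. The gene was higher under BPTES in proximal tubule-like cells and seen at 3 and 4 UMIs (BPTES) and 14 and 30 UMIs (DMSO) in macrophage-like cells. The nuclear members as a sum moved opposite ways in 2 sets of classes: every BPTES library was below every DMSO library in macrophage-like (log2 ratio -0.29), monocyte-like (-0.22) and dendritic-like cells (-0.21), and above in distal convoluted tubule-like cells (0.45). These differences between classes were not tested. In cluster 14 of the distal convoluted tubule-like cells the ratio was -0.11.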

How the results depend on the processing

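Counts of members called moved by more than 1.5 times as follows. Proximal tubule (0): 1 at the 25% limit and without the low-count filter, 3 with DESeq2, 0 to 3 leaving out a library. Macrophage (17): 53 without the filter, 29 with DESeq2, 7 with doublets kept, 2 at resolution 2, 34 in cluster 5, 0 in cluster 16, 0 to 35 leaving out a library. Dendritic (7): 30 without the filter, 27 with doublets kept, 1 at resolution 2, 1 in cluster 13, 0 in cluster 27, 0 to 1 leaving out a library. Monocyte (0): 9 without the filter, 18 at resolution 2. T cell (0): 2 without the filter. Distal convoluted tubule (0): 7 without the filter, 18 with DESeq2, 0 to 85 leaving out a library. B cell (0): 9 without the filter, 6 with DESeq2, 0 to 12 leaving out a library. Endothelium (0) gave 0 to 1 and proximal tubule minus macrophage (1) 0 to 4 leaving out a library. The share of all genes called also rose without the filter, to 7.61% in macrophage, 5.44% in dendritic, 6.88% in monocyte, 2.93% in T, 3.21% in distal convoluted tubule and 5.78% in B cells. In macrophage it was 2.1% with doublets kept and 0.94% at resolution 2, against 3.34%. In dendritic cells it was 1.7% at resolution 2, 1.03% in cluster 13 and 0% in cluster 27, against 2.82%. Fits leaving out a library keep 1 library in a group, and the share of all genes called moved in them too. In proximal tubule, macrophage, distal convoluted tubule, B cell and endothelium, the highest count came where a larger share of all genes was called than in the main fit. The same held for proximal tubule minus macrophage. These ranges therefore do not by themselves set the members apart from other genes. The causes were not tested.

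With the replicate number as a block (replicate block), the counts were 3 in proximal tubule, 0 in macrophage, 20 in dendritic, 26 in distal convoluted tubule and 2 in B cells. The shares of all genes called in these fits were 8.14%, 0.392%, 7.65%, 8.54% and 4.67% in turn. Deviations of same-numbered libraries correlated at -0.15 (B cell) to 0.17 (distal convoluted tubule), so the numbers are taken as names only. A crossed pairing gave 6 calls in B cells, where 6.87% of all genes were called.

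The nuclear ratio of macrophages (-0.29) was -0.27 with doublets kept, -0.37, -0.19 and -0.18 in clusters 5, 16 and 40, -0.26, -0.11 and -0.51 at 15000 UMIs or more, 5000 to 15000 and under 5000, and -0.31 to -0.27 leaving out a library. That of proximal tubule (-0.14) was -0.077 after TMM scaling, -0.088 with equal weight per cell, 0.017, 0.037, -0.037, -0.18 and -0.028 in clusters 17, 2, 6, 8 and 9, -0.061 at 5000 to 15000 UMIs and 0.00068 below. That of distal convoluted tubule (0.45) was -0.11 in cluster 14. The mitochondrial ratio of proximal tubule (0.24) was -0.011, 0.0091, -0.10, -0.018 and -0.018 in clusters 1, 2, 6, 8 and 9, and that of distal convoluted tubule (0.32) -0.13 at the 25% limit. In proximal tubule, Cox4i1 (0.02) was -0.059 at the 25% limit, -0.0072 at resolution 2, and -0.018 (without DMSO replicate 1) to 0.074 leaving out a library, and Sdhb (-0.06) was -0.12 to 0.018 (without BPTES replicate 2). Of 464 values of single members under an alternative, 146 lost the call, 12 gained it and 5 changed sign. Depth limits the rare isoforms: Cox6a2 in macrophage-like cells rests on 3 to 30 UMIs per library.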

Other observations

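In proximal tubule-like cells the genes for mitochondrial gene expression and biogenesis summed to 946 and 943 UMIs per 1e6 non-mitochondrial UMIs with BPTES, against 905 and 862. None of the 21 genes passed edgeR's test, 6 had an unadjusted p under 0.05, against 20.7% of all genes, and the median log2 fold change was 0.08. In macrophage-like cells the sum of the same list overlapped between groups, at 484 and 452 per 1e6 against 476 and 473.

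Barcodes over 50% mitochondrial UMIs, which entered no comparison, held 29512 and 26251 UMIs of nuclear members per 1e6 non-mitochondrial UMIs with BPTES and 26762 and 27753 with DMSO, so the groups overlapped.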
